A study of Homo sapiens with 6 samples.

Results

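The 9 genes described here are the markers by which breast cells and breast cancers are sorted into subtypes: ESR1, PGR and ERBB2, GATA3 and FOXA1, KRT18 and EPCAM, and KRT5 and KRT14. They were chosen by symbol, and all 9 had a row among the 25545 genes of the deposited table of TPM (transcript abundance, a read count per transcript length scaled to a common total). RNA sequencing had been done on BT-549, an established human triple-negative breast cancer (TNBC) cell line. Transfection for 48 h was with a control siRNA (CsiRNA, 3 libraries) or with an siRNA against the lncRNA NEAT1 (NEAT1siRNA, 3 libraries), and RNA came from cells grown in triplicate. The sample names carry the prefix BT-549/tet in both groups, and the growth medium held serum and insulin in both. Both groups are siRNA transfections of 1 cell line, and the labels do not say what the prefix tet stands for. Since the labels do not say that the libraries were from separate cultures on separate days, p-values measure the spread between these samples, which may be technical.

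The luminal cells that line the milk ducts express the oestrogen receptor (ESR1), the progesterone receptor (PGR), the transcription factors GATA3 and FOXA1, and the simple-epithelium keratins KRT8 and KRT18. The basal, or myoepithelial, cells around them express KRT5 and KRT14. ERBB2 encodes the HER2 receptor tyrosine kinase, and EPCAM an adhesion molecule of epithelial cells. Tumours that lack ESR1, PGR and amplified ERBB2 are called triple-negative, and some of them express mesenchymal genes in place of epithelial ones.

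Of the 9 markers, ERBB2 and KRT18 alone had a mean of at least 1 TPM over the 6 libraries, and neither passed the test between NEAT1siRNA and CsiRNA cells. ERBB2 had a CsiRNA level of 6.19 ± 0.212 TPM (SD, n = 3) and KRT18 one of 1.35 ± 0.345 TPM (SD, n = 3). The other 7 were below 0.1 TPM in each CsiRNA library. ESR1 was listed at 0 in all 6 libraries, and EPCAM in all but 1.

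**Figure D1:**
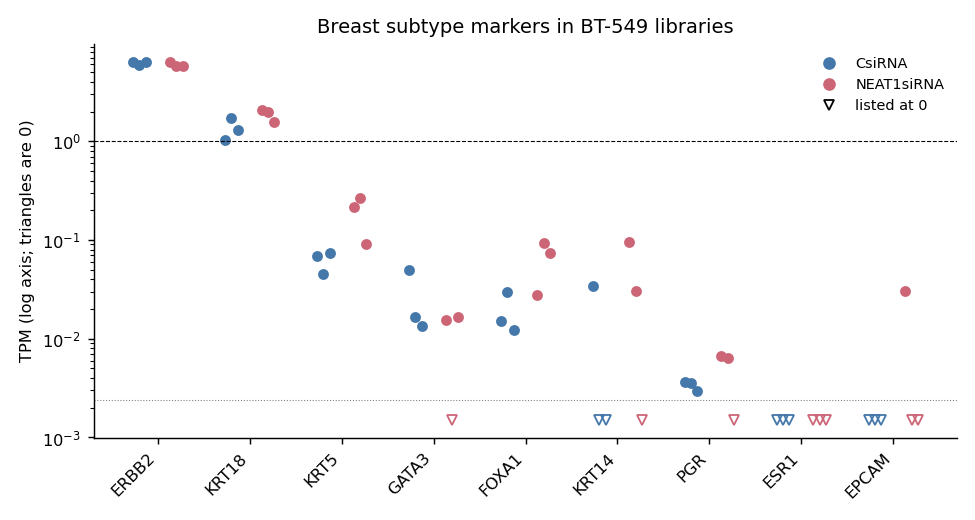
TPM (log axis) of the 9 markers in each of the 3 CsiRNA (blue) and 3 NEAT1siRNA (red) libraries, with open triangles for values listed at 0 and a dashed line at 1 TPM. ERBB2 and KRT18 lie above the dashed line in every library, and the other 7 markers lie below it.

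To show the regulatory sequence of markers on both sides of this divide, the 300 bases around the start of 2 canonical transcripts were read from GRCh38, from 250 bases before the start to 50 after it, and are printed 5′ to 3′ on the gene's strand. ERBB2 (chr17:39699814-39700113, plus strand) and ESR1 (chr6:151807432-151807731, plus strand), both receptors that define the clinical subtypes, are shown since they hold nearly the same number of CG pairs, while one is at 6.19 TPM and the other is listed at 0. Capitals mark CG, the pair at which DNA is methylated.
ERBB2: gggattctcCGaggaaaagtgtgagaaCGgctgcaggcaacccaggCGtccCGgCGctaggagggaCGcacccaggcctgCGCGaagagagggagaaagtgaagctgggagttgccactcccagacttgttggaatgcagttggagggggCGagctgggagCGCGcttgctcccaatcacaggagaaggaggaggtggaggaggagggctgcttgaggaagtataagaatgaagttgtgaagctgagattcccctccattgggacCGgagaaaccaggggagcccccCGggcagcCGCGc
ESR1: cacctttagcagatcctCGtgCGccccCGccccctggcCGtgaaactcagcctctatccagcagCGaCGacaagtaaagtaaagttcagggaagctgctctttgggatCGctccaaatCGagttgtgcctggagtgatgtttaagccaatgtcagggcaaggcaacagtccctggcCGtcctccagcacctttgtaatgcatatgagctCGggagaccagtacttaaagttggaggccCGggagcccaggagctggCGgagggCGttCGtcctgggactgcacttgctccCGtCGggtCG

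CG was counted on 1 strand, since it reads the same on the other, and the letters searched were CG alone, with no overlap with another motif. The ERBB2 window held 15 CG pairs, a number reached by 48.9% of the 35116 promoter windows of that length in RefSeq, whose median was 14. The ESR1 window held 17, reached by 46.0%. Of 5 other markers, FOXA1 held 34, GATA3 29, KRT14 11, and PGR and KRT5 7 each. No methylation was measured here, and the windows are a description.

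For depth, the libraries held 15790244 to 20341217 reads on genes, as recovered from the low TPM values. Replicates within a group differed by more than sampling noise, with a chi-square of 4.58 to 14.3 per degree of freedom over genes. For pairs of libraries from different groups it was 13.2 to 29.8, so the ranges overlapped. The overlap came from the first and second NEAT1siRNA libraries (14.3), while the other pairs within a group were at 4.58 to 7.06. NEAT1, the target, was at 13.4, 7.68 and 10.8 TPM in the CsiRNA libraries and at 4.36, 2.96 and 2.73 TPM in the NEAT1siRNA libraries, a log2 fold change of -1.41 (SE 0.14; limma, adjusted p = 1.21e-07). Over all genes, 1498 of the 10721 tested (14.0%) passed an adjusted p of 0.05 in limma, 535 higher and 963 lower in NEAT1siRNA cells. In RNA from whole cultures, fewer cells of a type and less RNA per cell cannot be told apart. The 4 short RNAs RN7SK, RN7SL1, RN7SL2 and RPPH1 took 64.4% to 68.1% of the TPM in each library, so that every TPM given here would be 2.81 to 3.13 times higher without them.

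The cell line was checked against its defining markers. All 10 mesenchymal genes listed were at 1 TPM or more in CsiRNA cells, with a summed level of 1918 to 2127 TPM per CsiRNA library and 1727 to 1976 TPM per NEAT1siRNA library. VIM, the intermediate filament of mesenchymal cells, was at 1046 ± 78.9 TPM (SD, n = 3) in CsiRNA cells. SPARC, a secreted matrix protein, was at 346.6 ± 5.40 TPM, and the collagen gene COL1A2 at 198.1 ± 9.66 TPM. None of the 6 epithelial genes (EPCAM, CDH1, CLDN3, CLDN4, CLDN7, ESRP1) reached 1 TPM, and their sum was 0.264 to 0.354 TPM per CsiRNA library. In the wider list of 28 epithelial junction genes and regulators given below, 21 had a CsiRNA mean under 1 TPM. Epithelial genes were not all low, as KRT7 (39.6 TPM), TJP1 (8.67 TPM) and OCLN (5.49 TPM) were above it. The 8 luminal genes summed to 47.9 to 57.1 TPM in CsiRNA and 47.3 to 51.7 TPM in NEAT1siRNA libraries, and nearly all of it was XBP1, a secretory-pathway transcription factor expressed in many cell types. The 6 basal genes summed to 13.6 to 14.9 TPM in CsiRNA and 19.5 to 21.5 TPM in NEAT1siRNA libraries, mostly CDH3 (P-cadherin). Of 8 genes of other cell types, CD68 alone, which tumour cell lines also express, passed 1 TPM (26.3 ± 2.50 TPM in CsiRNA cells, SD, n = 3), while CD3E, CDH5 and ADIPOQ were at 0, and DCN and PTPRC were at 0.0429 and 0.0382 TPM.

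Among the receptors that define the clinical subtypes, ESR1 (chr6:151656691-152129619, plus strand) was listed at 0 TPM in each of the 3 CsiRNA and 3 NEAT1siRNA libraries. ESR1 had no row in the comparison table, so no fold change was computed. A listed 0 was not taken as proof of absence, since H3F3A, a histone gene that every cell uses, was also listed at 0 in all 6 libraries, while its near-identical copy H3F3AP4 was at 29.5 to 56.3 TPM. The groups therefore could not be compared for ESR1.

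PGR (chr11:101029624-101129813, minus strand), an oestrogen receptor target and itself a steroid receptor, was at 0.00364, 0.00359 and 0.00295 TPM in the CsiRNA libraries and at 0.00676, 0.00639 and 0 TPM in the NEAT1siRNA libraries. In reads, this was 1 in each CsiRNA library and 2, 2 and 0 in the NEAT1siRNA libraries. The ratio of the summed reads, corrected for depth, was 1.39 with a 95% interval of 0.234 to 9.46 (exact binomial, counting error only). The groups overlapped, and a difference in PGR was not detectable at this depth.

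ERBB2 (chr17:39687914-39730426, plus strand), the receptor amplified in HER2-positive tumours, was at 6.30, 5.95 and 6.33 TPM in the CsiRNA libraries and at 6.36, 5.83 and 5.76 TPM in the NEAT1siRNA libraries. The 6 values lay between 5.76 and 6.36 TPM, with the highest and the lowest both in NEAT1siRNA libraries, and the groups overlapped. The means were 6.19 ± 0.212 and 5.98 ± 0.328 TPM (SD, n = 3). On the log2(TPM + 1) scale the difference was -0.043 (SE 0.093, 95% interval -0.234 to 0.147; limma, adjusted p = 0.812). The recovered reads, 2262 in CsiRNA and 2166 in NEAT1siRNA libraries, gave a depth-corrected ratio of 0.995 (95% interval 0.938 to 1.06, counting error only), the narrowest of the markers. The sign of the ERBB2 difference was not stable: it was 0.014 with the values centred on each library's median and 0.0079 with the trend on GC content and length removed. ERBB2 was above 74.1% of all genes in the table in CsiRNA cells, a share that counts the genes at 0. By mean CsiRNA TPM it ranked 6628, where the genes at 0 shared rank 17563.

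KRT18 (chr12:52948871-52952906, plus strand), the partner of KRT8 in the filaments of simple epithelia, was at 1.04, 1.72 and 1.30 TPM in the CsiRNA libraries and at 2.07, 1.995 and 1.55 TPM in the NEAT1siRNA libraries. The third NEAT1siRNA library lay below the second CsiRNA library, so the groups overlapped. The means were 1.35 ± 0.345 and 1.87 ± 0.282 TPM (SD, n = 3). The difference was 0.29 on the log2(TPM + 1) scale (SE 0.11, 95% interval 0.064 to 0.522; limma, adjusted p = 0.0801), which did not pass. KRT18 thus had an unadjusted p below the threshold, as did 27.4% of all genes tested. Without the second CsiRNA library the difference was 0.40 and passed (limma, adjusted p = 0.00907), and without the first it was 0.20 (limma, adjusted p = 0.373). With the trend on GC content and length removed and the replicate number as a block it also passed (0.32; limma, adjusted p = 0.0426). KRT18 rested on 118 reads in CsiRNA and 163 in NEAT1siRNA libraries, with a depth-corrected ratio of 1.44 (95% interval 1.13 to 1.84, counting error only). KRT18 has many processed copies in the genome that can share its reads, so its level is uncertain. The one copy with a row here, KRT18P55, was listed at 0 in all 6 libraries.

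**Figure D2:**
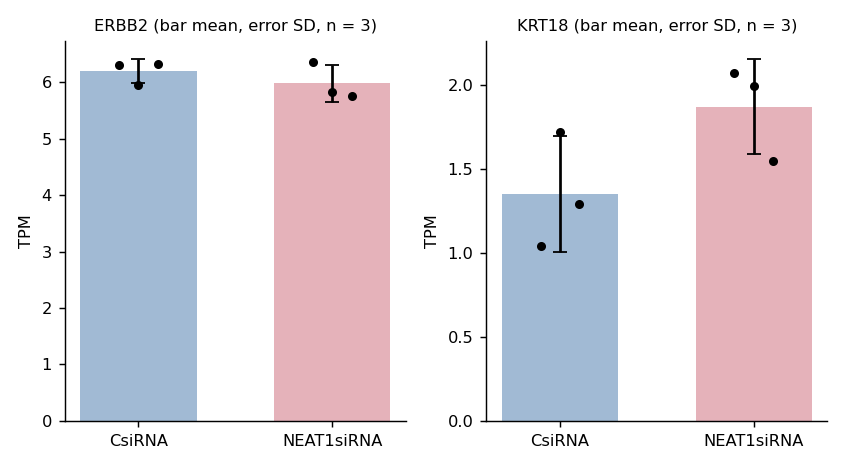
TPM of ERBB2 (left) and KRT18 (right), the markers with a mean of at least 1 TPM, in CsiRNA and NEAT1siRNA cells, where bars are means, error bars are SD (n = 3) and dots are libraries. The ERBB2 dots lie between 5.76 and 6.36 TPM in both groups, while the KRT18 means are 1.35 and 1.87 TPM with overlapping dots.

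Read counts behind the markers differed from gene to gene, and so did the share of all genes that pass each test. Of the 2 markers tested, 0 passed (limma), against 14.0% of all genes, and 1 had an unadjusted p under 0.05, against 27.4%. Without a filter on TPM, 8 markers could be fitted and 0 passed (limma), against 2.73% of 18531 genes, and 2 had an unadjusted p under 0.05, against 19.4%. With voom on the reads of genes with at least 10, a setting chosen after the data were seen, 4 markers could be fitted and 0 passed, against 18.0% of 14888 genes, and 3 had an unadjusted p under 0.05, against 30.8%. Neither ERBB2 nor KRT18 had groups that did not overlap, against 30.3% of genes tested.

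Of the luminal transcription factors, GATA3 (chr10:8045378-8075198, plus strand), which keeps cells luminal, was at 0.04999, 0.0164 and 0.0135 TPM in the CsiRNA libraries and at 0.0155, 0 and 0.0165 TPM in the NEAT1siRNA libraries. These were 5 reads against 2, a ratio of 0.416 (95% interval 0.0396 to 2.54, counting error only), and the groups overlapped. FOXA1 (chr14:37589552-37596059, minus strand), the pioneer factor that opens chromatin for the oestrogen receptor, was at 0.0150, 0.0296 and 0.0122 TPM in the CsiRNA libraries and at 0.0279, 0.0923 and 0.0744 TPM in the NEAT1siRNA libraries. FOXA1 had 4 reads in CsiRNA and 14 in NEAT1siRNA libraries, a ratio of 3.64 (95% interval 1.14 to 15.2, counting error only). The first NEAT1siRNA library lay within the CsiRNA range. In limma without a filter its adjusted p was 0.233, and with voom on reads it was 0.131 at a log2 fold change of 1.48.

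Of the basal keratins, KRT5 (chr12:52514575-52520530, minus strand) was at 0.0690, 0.0454 and 0.0746 TPM in the CsiRNA libraries and at 0.214, 0.263 and 0.0914 TPM in the NEAT1siRNA libraries. All NEAT1siRNA values lay above all CsiRNA values, and the third of them was close to the CsiRNA range. The third libraries of both groups had 4 reads each, so the gap between these 2 came from the TPM scaling alone. The 30.3% of genes without overlap was taken over genes with a mean of at least 1 TPM, and does not apply to KRT5. KRT5 had 3, 2 and 4 reads in the CsiRNA libraries and 10, 13 and 4 in the NEAT1siRNA libraries, a ratio of 3.12 for the sums of 9 and 27 reads (95% interval 1.42 to 7.54, counting error only). It did not pass in limma without a filter (log2 difference 0.16, adjusted p = 0.170) or with voom on reads (log2 fold change 1.43, SE 0.52, adjusted p = 0.0694). KRT14 (chr17:41582279-41586895, minus strand), the partner of KRT5 in basal filaments, was at 0.0344, 0 and 0 TPM in the CsiRNA libraries and at 0.0958, 0.0303 and 0 TPM in the NEAT1siRNA libraries. These were 1 read and 4 reads, a ratio of 4.16 (95% interval 0.411 to 205, counting error only). KRT14 groups overlapped.

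EPCAM (chr2:47345158-47387601, plus strand) was at 0 TPM in every CsiRNA library and at 0.0301, 0 and 0 TPM in the NEAT1siRNA libraries, which was a single read in all. With 0 reads in CsiRNA and 1 in NEAT1siRNA libraries, both groups lay under the floor of 3 reads summed over a group, so no fold was computed.

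In CsiRNA cells the markers were ordered ERBB2, KRT18, KRT5, GATA3, FOXA1, KRT14, PGR, then ESR1 and EPCAM at 0. TPM is a per-length scale, so levels can be set between genes. ERBB2 was 4.58 times KRT18, whose level is uncertain, and both were above KRT5 in every CsiRNA library, with no overlap between neighbours. The 4 next neighbours in this order (KRT5 and GATA3, GATA3 and FOXA1, FOXA1 and KRT14, KRT14 and PGR) overlapped between libraries and cannot be ranked.

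To place KRT5, KRT14 and KRT18 among their family, all 55 keratin genes of the table were listed. Of these, 27 were at 0 in all 6 libraries and 4 had a mean of at least 1 TPM: KRT7, KRT80, KRT10 and KRT18. KRT7, a simple-epithelium keratin, and KRT80 held 89.8% of the summed keratin TPM in CsiRNA cells, and KRT18 held 2.06%. KRT7 was at 37.9, 38.6 and 42.3 TPM in CsiRNA and 33.1, 30.9 and 28.5 TPM in NEAT1siRNA libraries, and fell by 0.35 on the log2 scale (SE 0.09; limma, adjusted p = 0.0112). This call was lost without the third NEAT1siRNA library (limma, adjusted p = 0.0878). KRT80 was at 19.5 ± 0.450 and 21.2 ± 1.97 TPM, and KRT10 at 4.68 ± 0.694 and 4.73 ± 0.439 TPM (SD, n = 3), and neither passed. KRT80 passed in 2 of 18 alternatives, both with the trend on GC content and length removed. KRT8, the partner of KRT18, was at 0.0938, 0.0694 and 0.171 TPM in CsiRNA and 0.283, 0.206 and 0.0931 TPM in NEAT1siRNA libraries, over 43 reads. Of the basal keratins, KRT17 was at 0.0432 and 0.0568 TPM (means over 3 libraries each), over 9 reads, and KRT15 at 0.0280 and 0.202 TPM, over 25 reads. KRT8, KRT15 and KRT17 were named after their values were seen. Of the keratins tested, 1 of 4 passed, in the lower direction, beside 14.0% of all genes, with a median log2 difference of 0.064 against -0.044 over all genes tested.

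**Figure D3:**
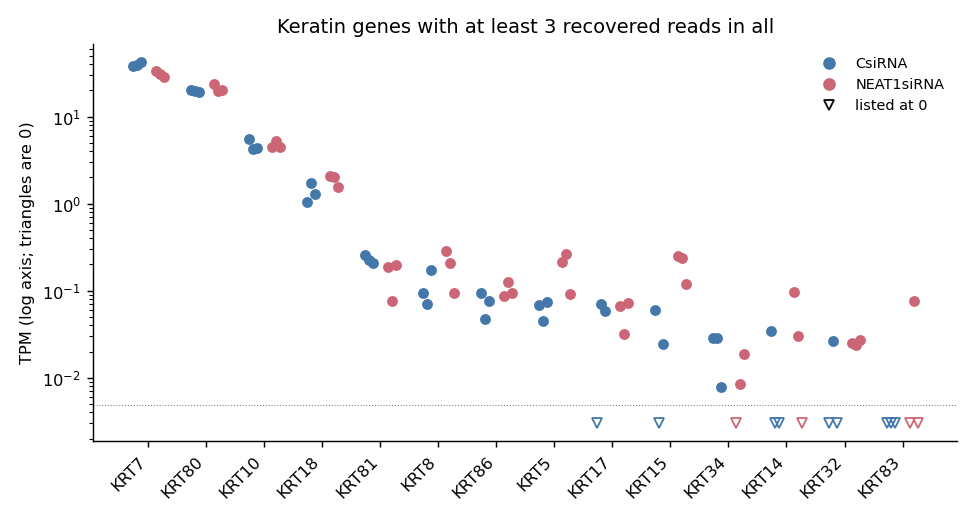
TPM (log axis) of keratin genes with at least 3 recovered reads in all, in CsiRNA (blue) and NEAT1siRNA (red) libraries, with open triangles for values listed at 0. KRT7 and KRT80 stand highest, KRT10 and KRT18 follow, and the others, KRT5 and KRT14 among them, lie below 1 TPM.

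The genes around ESR1, GATA3 and FOXA1 were then examined in the luminal and oestrogen receptor list of 22 genes, of which 11 were tested. Of those 11, 3 were higher (RARA, CA12, MUC1), 3 lower (SLC39A6, MLPH, MYB) and 5 did not pass, where 14.0% of all genes tested passed in either direction. The median was -0.11 against -0.044 over all genes. SLC39A6, a zinc transporter induced by oestrogen, fell from 59.4 ± 4.31 to 32.6 ± 3.07 TPM (SD, n = 3; log2 -0.85, SE 0.09; limma, adjusted p = 6.97e-07). MLPH, a melanosome transport protein, fell from 4.88 ± 0.338 to 3.36 ± 0.135 TPM (log2 -0.43; limma, adjusted p = 0.00291). RARA, the retinoic acid receptor alpha, rose from 3.79 ± 0.292 to 6.95 ± 0.715 TPM (log2 0.73; limma, adjusted p = 1.24e-05). CA12, a carbonic anhydrase, rose from 2.48 ± 0.0724 to 3.61 ± 0.0867 TPM (log2 0.40; limma, adjusted p = 0.00438). MYB (-0.33) and MUC1 (0.33), named after their values were seen, passed at adjusted p values of 0.0235 and 0.0399 in limma. Neither call was followed through the alternative settings. In all 4 of SLC39A6, MLPH, RARA and CA12 the groups did not overlap, as in 30.3% of all genes tested. These 4 were named for the smallest adjusted p in the list, so the lack of overlap adds no support. The highest genes of the list in CsiRNA cells besides SLC39A6 were XBP1 at 51.0 ± 4.75 TPM and TBX3, a T-box repressor, at 18.6 ± 1.69 TPM (SD, n = 3), and neither passed.

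Of 17 oestrogen receptor cofactors and partners, 14 were tested. The highest 3 in CsiRNA cells were TFAP2A (28.2 ± 2.65 TPM), a transcription factor of luminal and other epithelia, NCOR1 (20.5 ± 1.77 TPM), a corepressor, and MED1 (19.1 ± 1.32 TPM; SD, n = 3), a Mediator subunit. None of these 3 passed in limma (adjusted p 0.108, 0.401 and 0.0508). MED1 passed in 11 of 18 alternatives and TFAP2A in 6.

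Of 12 genes of the ERBB receptors and the HER2 amplicon, 5 were tested and 1 passed, where 14.0% of all genes passed. The median was -0.16 against -0.044 over all genes. EGFR, the partner receptor of ERBB2, fell from 57.9 ± 7.20 to 45.9 ± 2.76 TPM (SD, n = 3; log2 -0.33, SE 0.10; limma, adjusted p = 0.0250). The EGFR call was lost without the first CsiRNA library (limma, adjusted p = 0.215) and without the third NEAT1siRNA library (limma, adjusted p = 0.140). CDK12 at 15.8 ± 0.853 TPM and MIEN1 at 10.6 ± 0.723 TPM, both neighbours of ERBB2 on its amplicon, were above ERBB2 at 6.19 TPM in CsiRNA cells and did not pass. MIEN1 passed in 7 of 18 alternatives.

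Of 24 basal and myoepithelial genes besides KRT5 and KRT14, 9 were tested, 2 rose and 1 fell, where 14.0% of all genes passed. The median was 0.17 against -0.044 over all genes. CDH3 (P-cadherin) rose from 11.5 ± 0.639 to 16.8 ± 0.730 TPM (SD, n = 3; log2 0.52, SE 0.09; limma, adjusted p = 0.000365), and FOXC1, a forkhead factor of basal-like tumours, rose from 26.2 ± 0.363 to 37.6 ± 2.84 TPM (log2 0.50; limma, adjusted p = 0.000443). SFRP1, a secreted Wnt antagonist, fell from 24.7 ± 0.696 to 15.3 ± 1.17 TPM (log2 -0.66; limma, adjusted p = 2.22e-05). In these 3 genes the groups did not overlap, as in 30.3% of all genes tested. The 3 were named because they passed, so the lack of overlap adds no support. CAV1, the caveolae protein, was the highest at 314 ± 16.6 TPM in CsiRNA cells, and ITGA6 was at 24.7 ± 1.94 TPM (SD, n = 3), and neither passed. CAV1 passed in 7 of 18 alternatives (limma, adjusted p 0.00576 to 0.0478).

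Of 28 epithelial junction genes and regulators, 7 were tested and KRT7 alone passed, as given above, a share near the 14.0% of all genes. The median was 0.020 against -0.044 over all genes. TJP1, a tight junction scaffold, was at 8.67 ± 0.430 TPM and OCLN, a tight junction protein, at 5.49 ± 0.592 TPM in CsiRNA cells (SD, n = 3), and neither passed. OCLN passed in 7 of 17 alternatives. Of the 10 mesenchymal genes, FN1 (fibronectin) fell from 85.2 ± 7.98 to 61.1 ± 5.07 TPM (log2 -0.47; limma, adjusted p = 0.00116; 0.0515 with no filter on TPM) and CDH2 (N-cadherin) from 103.7 ± 9.49 to 82.0 ± 7.98 TPM (log2 -0.34; limma, adjusted p = 0.0186). The CDH2 call was lost without the first CsiRNA (limma, adjusted p = 0.143), the second CsiRNA (0.0539) or the third NEAT1siRNA library (0.121). The 2 that passed of 10 stand beside 14.0% of all genes, and the median of the 10 was -0.089 against -0.044. CD68, the one gene of other cell types tested, did not pass (0.345, limma adjusted p).

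PAM50, a panel of 50 genes used to assign breast cancers to intrinsic subtypes, includes 6 of the markers (ESR1, PGR, ERBB2, FOXA1, KRT5 and KRT14). Of the 50, 36 were tested, 3 rose, 9 fell and 24 did not pass, where 14.0% of all genes tested passed. Those that passed include SLC39A6, MLPH, EGFR, CDH3, FOXC1 and SFRP1, already counted in the lists above, so the lists are not separate results. The median was -0.083 against -0.044 over all genes. The highest in CsiRNA cells were ANLN (256.4 ± 15.5 TPM), CCNB1 (248.9 ± 16.8 TPM) and UBE2C (144.3 ± 4.36 TPM; SD, n = 3), genes of mitosis and cytokinesis. ANLN fell by 0.36 (limma, adjusted p = 0.00738), a call lost without the first CsiRNA (limma, adjusted p = 0.0742) or the third NEAT1siRNA library (0.0600). CCNB1 and UBE2C did not pass. PHGDH, the third that rose beside CDH3 and FOXC1, and named after its values were seen, had a log2 difference of 0.37 (limma, adjusted p = 0.00615). The PHGDH call was not followed through the alternative settings.

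**Figure D4:**
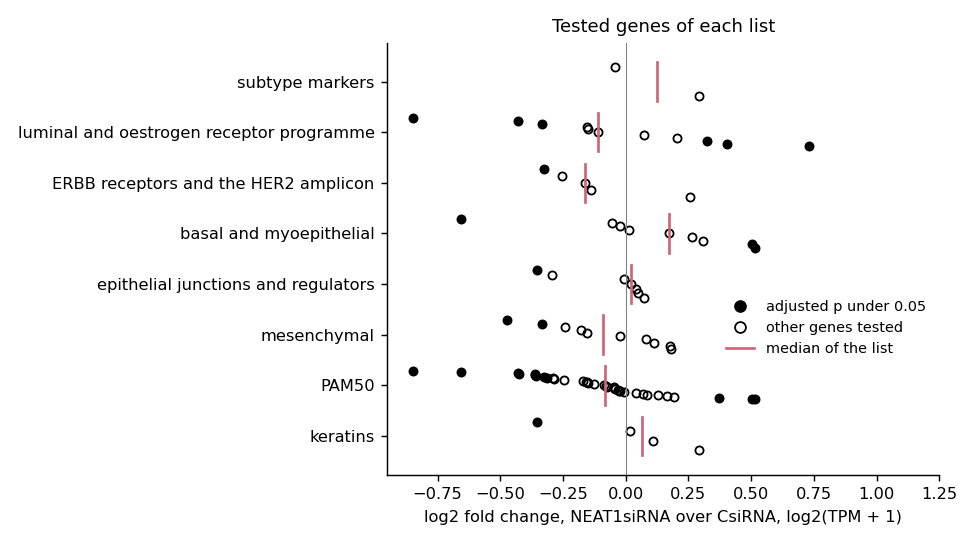
Log2 fold change, NEAT1siRNA over CsiRNA on the log2(TPM + 1) scale, of every tested gene of each list but those of other cell types and of oestrogen receptor cofactors, with filled dots for an adjusted p under 0.05 and a red line at the list's median. The 2 subtype markers tested, ERBB2 and KRT18, are open dots, while the luminal list has filled dots on both sides of 0, from SLC39A6 at -0.85 to RARA at 0.73.

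The genes whose pattern over the 6 libraries was most like that of ERBB2, by the Euclidean distance of centred log2(TPM + 1) values, were TRIM26 (distance 0.032, r = 0.98), WIPF2 (0.034, r = 0.99) and CPSF7 (0.038, r = 0.96). For KRT18 they were CDKN2D (0.138, r = 0.96), ZNF880 (0.152, r = 0.96) and NUDT6 (0.181, r = 0.96). These are descriptions over 6 libraries, which differed in depth and in how values moved with GC content. The genes were chosen as the closest of all genes tested, with no test.

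The 2 tested markers were followed through each way of handling the data. ERBB2 kept a difference between -0.082 and 0.014 over 18 alternatives and passed in 0 of them, and KRT18 kept one between 0.20 and 0.55 over 17 and passed in 2. Values for genes of high GC content moved from library to library, with a Spearman correlation of deviation with GC content, across 10423 genes that are not independent, of -0.73 (second NEAT1siRNA) to 0.68 (first NEAT1siRNA), as a description. The transcripts of ERBB2 and KRT18 have a GC content of 60.4% and 58.2%, and the part of this trend in their values was followed with the trend removed, where the KRT18 difference was 0.32 (limma, adjusted p = 0.0571).

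**Figure D5:**
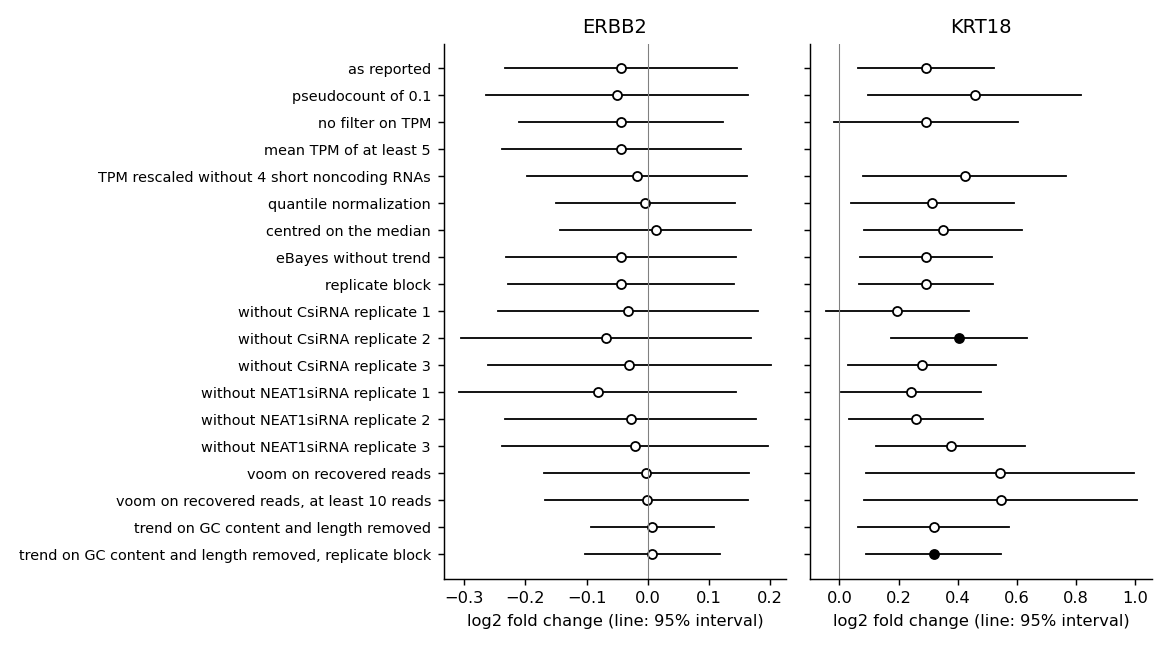
Log2 fold change of ERBB2 (left) and KRT18 (right), NEAT1siRNA over CsiRNA, with its 95% interval as a line, under each setting of the analysis, with filled dots for an adjusted p under 0.05. The ERBB2 dots lie near 0 in every setting, and the KRT18 dots lie between 0.20 and 0.55, filled in 2 settings.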

How the data were processed

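Libraries were made from total RNA with the TruSeq Stranded mRNA kit, and the submitters' processing notes name STAR, DESeq2 and the GRCh38 build, without the gene annotation. The authors deposited TPM per gene and library, and a table of their comparison in which the deposited baseMean is a signal, the mean normalized count. Its log2 fold changes with their errors, scores (the test statistic) and raw and adjusted p-values, deposited by the authors, were not used. Samples were grouped by their titles.

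TPM were compared as log2(TPM + 1) with limma 3.58.1 (lmFit, eBayes with trend, two-sided) in R 4.3.3, over 10721 genes whose TPM averaged 1 or more, with Benjamini-Hochberg adjustment over all and a threshold of 0.05. Fold changes on this scale understate those of low genes. An exact permutation test of 3 against 3 cannot go below p = 0.1. To learn the depth behind each value, reads were recovered from TPM and baseMean. Of the values above 0, 99.8% were whole within 0.05 reads in genes with a mean under 5. In genes with a mean of 500 or more 25.8% were, so high genes are approximate. Intervals are exact binomial, at 95%, and the floor is 3 reads summed over a group's libraries, both for counting error only. The script was tested on simulated data, drawn gene by gene with no trend on GC content. These libraries do carry such a trend, so that test does not cover it.

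The markers and lists were chosen with earlier results of these data known, and no p is adjusted over a list. The text names the 9 markers, NEAT1, the 3 highest genes of each list in CsiRNA cells, up to 4 per list with the smallest adjusted p past the threshold, and the 3 genes nearest each tested marker. Some items that the rule takes in are not reported here. Gene positions and promoter windows are from the GENCODE annotation on GRCh38, against windows from RefSeq. Of the symbols, 22278 matched current names, 779 older ones and 2488 none. The libraries carry no batch label. Replicate numbers did not pair the libraries (correlation of deviations -0.030, 0.25 and -0.11 for numbers 1 to 3). Alternatives changed the pseudocount (to 0.1), the filter (none, or 5 TPM), the scaling, the replicates used, the model (voom on reads), and the trend on GC content and length (splines with 4 degrees of freedom).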

Additional observations from a re-analysis of the deposited data

How the results depend on the processing

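The number of genes passing was 1498 of all genes tested (535 higher, 963 lower), 505 with no filter on TPM, 2504 with voom on recovered reads, 2681 with voom on genes with at least 10 reads, 3468 with the trend on GC content and length removed, 719 at an adjusted p under 0.01, and 314 where a log2 change of 0.5 or more was also asked for. With 1 library left out it ranged from 759 (without the first CsiRNA) to 2083 (without the second NEAT1siRNA), and was 838 without the third NEAT1siRNA. Higher and lower calls were 1082 and 1109 after quantile normalization, 1158 and 954 after centring on the median, and 918 and 1174 without the 4 short RNAs. Of the tested markers 0 passed, with 0 to 1 when a library was left out (1 without the second CsiRNA, KRT18). The ERBB2 difference changed sign under 3 settings. It was 0.0136 with centring on the median, which shifted every gene tested by the same 0.0569. It was 0.0079 with the trend on GC content and length removed, with or without the replicate block, and the cause of that change was not tested. A mean TPM of 5 or more left KRT18 untested. With no filter the calls of KRT7, EGFR, FN1, CDH2 and ANLN were lost (limma, adjusted p 0.0515 to 0.137). Those of H3F3AP4 and CDKN2D were lost too (limma, adjusted p 0.0791 and 0.216). CDKN2D, which had passed narrowly (limma, adjusted p = 0.0454), lost its call in 7 of 17 alternatives. Calls were gained under some alternatives by CAV1, MIEN1 and OCLN (7 each), MED1 (11), TFAP2A (6), ZNF880 (8), KRT18, KRT80, NUDT6 and SPARC (2 each), and COL1A2 and VIM (1 each).

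With the replicate block, 1640 genes passed against 1498, and 0 markers. With the block and the trend on GC content and length removed, 3391 genes and 1 marker passed, the marker being KRT18. The replicate numbers correlated best with their own number for replicate 2 alone, and the samples share only a number. Depth limits 6 of the 7 low markers: 7 reads in all for PGR and GATA3, 18 for FOXA1, 36 for KRT5, 5 for KRT14 and 1 for EPCAM. ESR1 has no recovered reads.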
